A study of Mus musculus with 6 samples.

Results

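The zinc finger genes numbered Zfp700 to Zfp999 were examined in the vermis, the strip along the midline of the cerebellum, of mice aged 8 weeks. They were chosen by symbol, with earlier results of these data known. The rule took every row of the deposited gene table named Zfp with a 3-digit number. The number begins with 7, 8 or 9, with at most 1 letter after it. That rule gave 132 of the 21927 rows of the table. Total RNA was sequenced from 3 LINE-1a mice, in which the study's description says the retrotransposon LINE-1 is activated, and from 3 dCas mice, the control strain, with 1 library per mouse. The names of the strains are all that the labels give of their genetics: the construct, its promoter, the cells in which it acts and what both strains carry are not stated in the sources read here. The labels call the mice replicates and say nothing of litters or days, so the p-values cover only how far these 6 animals varied.

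Most of these genes encode C2H2 zinc finger proteins, in which a row of small zinc-holding loops reads the DNA sequence. A large class of them also carries a KRAB box, a short domain that binds the corepressor Trim28. Trim28 brings in enzymes that lay down repressive chromatin, and in mice several such proteins are known to silence endogenous retroviruses and other transposable elements. Genes of this class lie in clusters that arose by repeated duplication, so neighbouring members can share much of their sequence.

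The gene table held 23483158 to 27234058 reads in the LINE-1a libraries and 27894408 to 33445789 reads in the dCas libraries. Values are normalized counts, reads divided by 1 size factor per library, given as mean ± SD over 3 libraries. Differences are log2 fold changes, LINE-1a minus dCas, on the log2(normalized count + 1) scale, with their standard error (SE). That scale understates the change of low genes. Reads of 4 Y-linked genes marked LINE-1a 3 and all dCas libraries as male, and the remaining LINE-1a libraries as female, so sex and strain are partly confounded. Markers of granule and Purkinje cells were abundant in every library, as fits cerebellar tissue. The 6 choroid plexus markers summed to 1708, 35296 and 105408 normalized counts in LINE-1a 1, 2 and 3, against 83896, 1387 and 1274 in dCas 1, 2 and 3, so 2 LINE-1a libraries and 1 dCas library held much of that tissue's RNA. In bulk tissue, fewer cells of a type and less RNA per cell cannot be told apart.

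No member passed the test, and the member farthest from equal levels was Zfp710. Of the 132 members, 118 had a mean of at least 10 normalized counts and were tested. In limma, 0 of them had a Benjamini-Hochberg adjusted p under 0.05, in a table where 23 of 15800 features, 0.146%, did. At an unadjusted p under 0.05 there were 13 members, 5 higher and 8 lower in LINE-1a vermis. They make up 11.0% of those tested, below the 15.3% of the whole table, of which 7.94% were higher and 7.35% lower. On reads recovered from the normalized counts, edgeR also called 0 members (0.146% of all features), and DESeq2 called 1, Zfp710, where it called 0.88% of all features.

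Zfp710 had 476, 698 and 903 normalized counts in LINE-1a 1, 2 and 3, against 269, 195 and 165 in dCas 1, 2 and 3. All LINE-1a libraries lay above all dCas libraries. The gene encodes a protein of 666 residues with 11 C2H2 fingers and no KRAB box, and lies on the plus strand at chr7:80024814-80094173 (GRCm38). Its mean was 692 ± 214 in LINE-1a and 210 ± 53.6 in dCas vermis, a log2 fold change of 1.70 ± 0.26 (SE), or 3.25-fold with a 95% interval of 2.16 to 4.89. Its limma p of 9.27e-05 was the 26th smallest of the table and gave an adjusted p of 0.0546. The adjusted p was 0.0564 in edgeR and 7.96e-07 in DESeq2, so the call depended on the tool. It also depended on single libraries: in limma the adjusted p was 0.038 without LINE-1a 1 and 0.0232 without dCas 1, and between 0.161 and 0.281 when any of the other 4 was left out.

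LINE-1a 3, highest in Zfp710, also had the highest choroid plexus marker sum of its strain, and dCas 1 likewise among the controls. The sum was mostly Ttr in every library but dCas 3, where Ttr was at 144 and Clic6 at 760 normalized counts. Ttr was at 1208, 34324 and 102965 normalized counts in LINE-1a 1, 2 and 3, against 81570, 760 and 144 in dCas 1, 2 and 3. Within each strain that is the order of Zfp710. The sums of dCas 2 and dCas 3 were nearly equal, and their order differed among the 6 markers. Across strains, dCas 1, with a marker sum of 83896, had 269 normalized counts of Zfp710. LINE-1a 1, with a marker sum of 1708, had 476. The part of choroid plexus content in the Zfp710 values was not tested. A marker covariate was fitted after the libraries' values were seen. It was the median, over the 6 markers, of the log2 level minus its mean over the libraries. With this covariate the log2 fold change of Zfp710 was 1.45 (limma adjusted p = 0.0258). With sex as a covariate it was 2.13 (limma adjusted p = 0.276), the same difference as between LINE-1a 3 and the dCas libraries, which are all male.

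**Figure D1:**
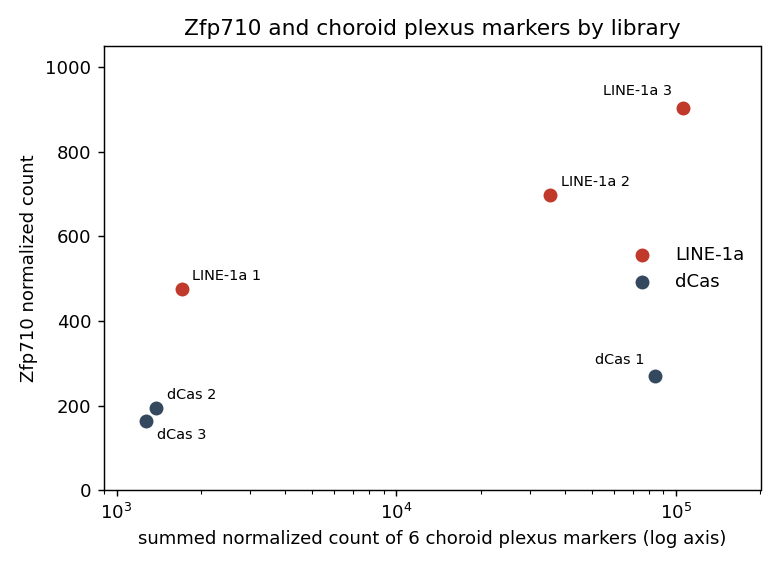
Normalized count of Zfp710 (vertical axis) against the summed normalized counts of 6 choroid plexus markers (horizontal axis, log scale), 1 point per library, with LINE-1a in red and dCas in dark blue. The LINE-1a libraries lie at 476 to 903 and the dCas libraries at 165 to 269, and each strain holds low and high marker sums.

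Zfp771 had the next smallest p of the members, at 215, 300 and 308 normalized counts in LINE-1a 1, 2 and 3, against 173, 168 and 151 in dCas 1, 2 and 3. The lowest LINE-1a library lay above the highest dCas library. The gene, at chr7:127244274-127254803 on the plus strand, encodes 8 fingers and no KRAB box. Its mean was 274 ± 51.7 in LINE-1a and 164 ± 11.1 in dCas vermis, a log2 fold change of 0.72 ± 0.20 (SE). In limma its p was 0.00495 unadjusted and 0.325 after adjustment. It therefore did not pass, and neither edgeR (adjusted p = 0.344) nor DESeq2 (adjusted p = 0.0847) called it.

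By p, Zfp804b and Zfp850 came first among the members with lower values. Zfp804b, at chr5:6769010-7344756 on the minus strand, is a paralog of Zfp804a and had 387, 199 and 334 normalized counts in LINE-1a 1, 2 and 3, against 506, 510 and 471 in dCas 1, 2 and 3. The groups did not overlap, with a log2 fold change of -0.74 ± 0.24 (SE; limma adjusted p = 0.325). Zfp850, at chr7:27984854-28014115 on the minus strand, encodes a KRAB box and 16 fingers. It had 244, 145 and 173 normalized counts in LINE-1a 1, 2 and 3, against 272, 263 and 302 in dCas 1, 2 and 3, again without overlap (log2 fold change -0.60 ± 0.22 (SE), limma adjusted p = 0.325). In both genes the lowest library was LINE-1a 2, without which the log2 fold change was -0.46 for Zfp804b and -0.44 for Zfp850.

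**Figure D2:**
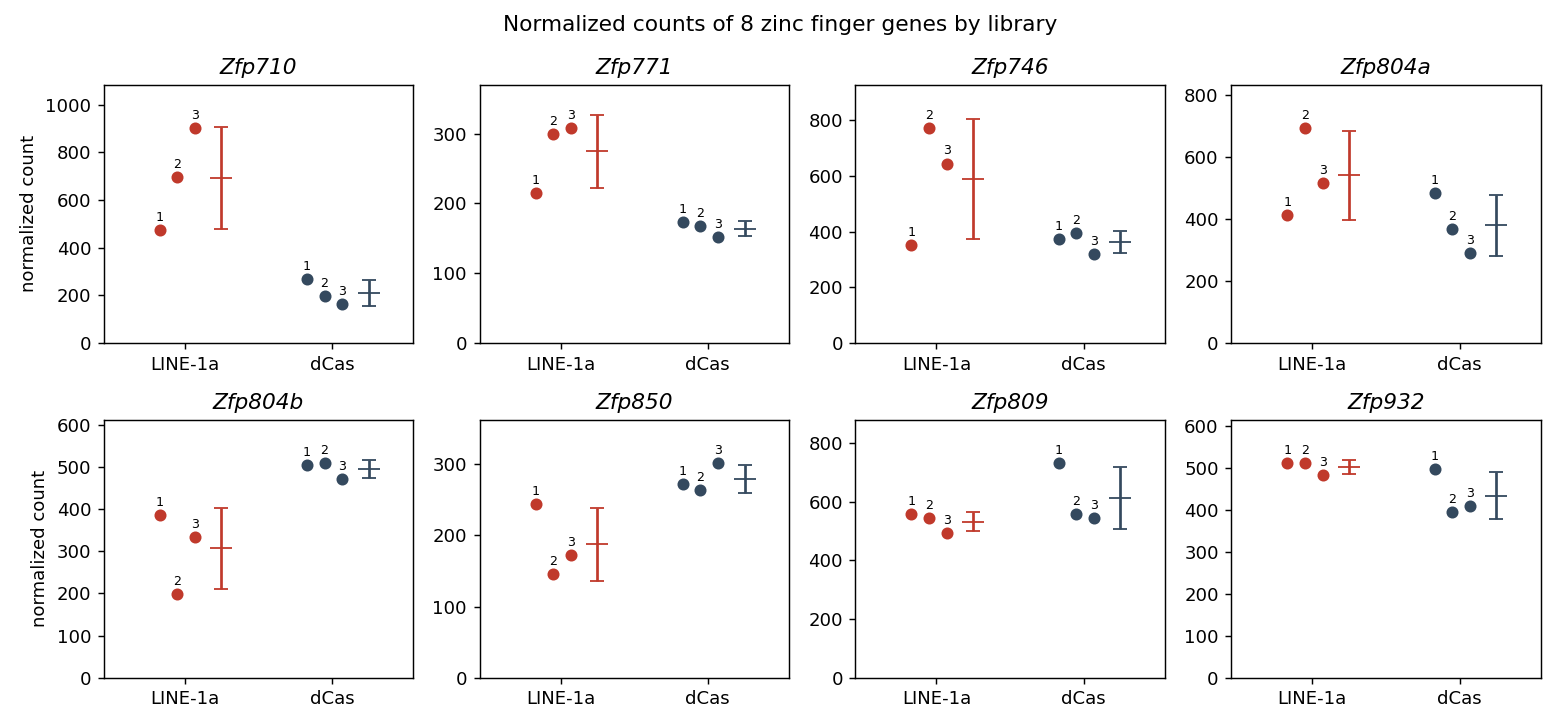
Normalized counts of 8 members (vertical axis, from 0, a scale for each gene) in the LINE-1a libraries (red, left) and the dCas libraries (dark blue, right), numbered by replicate, with the mean and SD as bars. For Zfp710 and Zfp771 every LINE-1a library lies above every dCas library, and for Zfp804b and Zfp850 every LINE-1a library lies below.

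The promoters of these 4 genes, the 2 of smallest p in each direction, are shown to place their CpG content beside their values. Each runs from 250 bases before to 50 bases after the RefSeq transcription start (GRCm38.p6), 5′ to 3′ on the gene's own strand, with CpG dinucleotides in capitals. They cover chr7:80024564-80024863 (plus), chr7:127244276-127244575 (plus), chr5:7344329-7344628 (minus) and chr7:28014066-28014365 (minus).
Zfp710: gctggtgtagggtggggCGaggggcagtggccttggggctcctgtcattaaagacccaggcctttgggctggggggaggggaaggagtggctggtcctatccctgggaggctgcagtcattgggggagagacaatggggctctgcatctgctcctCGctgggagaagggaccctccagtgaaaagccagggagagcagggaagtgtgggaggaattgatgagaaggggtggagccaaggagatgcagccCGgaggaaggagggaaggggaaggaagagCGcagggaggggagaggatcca
Zfp771: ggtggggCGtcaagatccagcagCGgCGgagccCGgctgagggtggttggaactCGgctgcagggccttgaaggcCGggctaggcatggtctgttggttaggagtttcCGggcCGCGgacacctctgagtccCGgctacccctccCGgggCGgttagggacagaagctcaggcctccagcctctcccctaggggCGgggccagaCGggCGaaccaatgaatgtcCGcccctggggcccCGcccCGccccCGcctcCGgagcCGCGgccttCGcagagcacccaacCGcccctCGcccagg
Zfp804b: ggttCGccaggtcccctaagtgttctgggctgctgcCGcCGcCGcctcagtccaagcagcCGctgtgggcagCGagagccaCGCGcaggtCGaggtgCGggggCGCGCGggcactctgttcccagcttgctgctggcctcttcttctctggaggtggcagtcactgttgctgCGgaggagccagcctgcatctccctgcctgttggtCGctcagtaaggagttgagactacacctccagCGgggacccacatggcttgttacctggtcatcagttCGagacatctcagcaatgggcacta
Zfp850: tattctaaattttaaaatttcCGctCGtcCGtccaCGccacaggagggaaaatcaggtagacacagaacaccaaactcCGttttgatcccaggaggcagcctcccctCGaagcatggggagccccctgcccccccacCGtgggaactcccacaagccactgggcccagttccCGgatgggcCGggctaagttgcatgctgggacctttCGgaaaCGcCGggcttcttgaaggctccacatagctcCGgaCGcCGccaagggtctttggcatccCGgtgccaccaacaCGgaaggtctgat

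The Zfp710 window held 4 CpGs and the Zfp771 window 25, while those of Zfp804b and Zfp850 held 17 each. Among all 32851 promoters of the table the median was 7. A GC box, the letters GGGCGG searched on both strands, which Sp1-family factors are known to bind, matched 6 times in the Zfp771 window and 0 times in the other three. It was present in 35.7% of all promoters and in 39.6% of 134 promoters of 115 members with an entry. Promoters of members without a KRAB box held it in 70.8% of 24 windows, with a median of 24 CpGs, and promoters of members with a KRAB box in 31.5% of 108 windows, with a median of 8.5 CpGs. The 2 members highest by fold change thus had the fewest and the most CpGs of these 4 windows.

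The surroundings of Zfp710 and Zfp771 were compared next. Of 21 tested genes starting within 500 kb of Zfp710, 0 passed in limma, 2 had an unadjusted p under 0.05 and higher values, 1 had lower values (14.3% in all, against 15.3% of all features), and the median log2 fold change was -0.13. The highest of the 21 was Idh2, which encodes the mitochondrial, NADP-dependent isocitrate dehydrogenase and lies on the opposite strand at chr7:80094846-80115392, with its 3′ end 673 bases from that of Zfp710. Idh2 had 302, 449 and 523 normalized counts in LINE-1a 1, 2 and 3, against 267, 233 and 228 in dCas 1, 2 and 3, in the same order of libraries as Zfp710. Its log2 fold change was 0.77 ± 0.22 (SE; limma adjusted p = 0.325), and the groups did not overlap. The sources used here do not say whether strand was used in counting, and the annotation places the antisense genes Gm21057 and Gm44949 inside Zfp710, so reads of these genes cannot be told from those of Zfp710, and the part of reads past either 3′ end was not tested. Around Zfp771, 0 of 51 tested genes passed in limma, 3 had an unadjusted p under 0.05 and higher values, 4 had lower values (13.7% in all), and the median log2 fold change was 0.07. Its nearest neighbours, the zinc finger gene Zfp553 and Dctpp1, a nucleotide pyrophosphatase gene, had log2 fold changes of 0.02 and -0.04.

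None of the members known in mice to act on transposable elements passed the test in limma. Zfp809, which silences murine leukemia virus and VL30 elements through Trim28, had 559, 545 and 495 normalized counts in LINE-1a 1, 2 and 3, against 734, 559 and 545 in dCas 1, 2 and 3. The groups overlapped and dCas 1 was the highest library. The log2 fold change was -0.19, with a 95% interval of -0.56 to 0.18 (limma adjusted p = 0.541). Zfp932, which acts on ERVK elements such as MMERVK10C, had 512, 511 and 482 normalized counts in LINE-1a 1, 2 and 3, against 498, 394 and 408 in dCas 1, 2 and 3. Its groups overlapped through dCas 1, with a log2 fold change of 0.22 and a 95% interval of -0.13 to 0.57 (limma adjusted p = 0.46). Zfp708, which binds RMER19B elements, averaged 152 ± 18.6 normalized counts in LINE-1a and 150 ± 4.80 in dCas vermis, a log2 fold change of 0.01. Zfp819, linked to the repression of IAP elements, was under the filter, between 0 and 6.04 normalized counts in LINE-1a and between 1.33 and 6.94 in dCas libraries. At this depth no difference of Zfp819 was detectable.

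Repeat families were read from the separate repeat table, which has size factors of its own. They were chosen by name, for the elements these 4 proteins are known for and related ones such as RMER19C and MURVY. All 15 such families were tested, and 0 passed in limma, as for all 989 tested repeats (0%). Their median log2 fold change was -0.09, with 5 above and 10 below 0, beside a median of 0.05 over all repeats. At an unadjusted p under 0.05 stood 2 of the 15, RLTR4_Mm and MURVY-LTR, both lower, against 14.9% of all repeats. RLTR4_MM-int, the internal part of a murine leukemia virus family, had 31660, 7149 and 22086 normalized counts in LINE-1a 1, 2 and 3, against 28613, 34579 and 71480 in dCas 1, 2 and 3. LINE-1a 2 was the lowest and dCas 3 the highest, the groups overlapped, and the log2 fold change was -1.27 ± 0.58 (SE; limma adjusted p = 0.305). The row MuLV-int lay between 0.984 and 0.991 times RLTR4_MM-int in every library and is not independent of it. MMERVK10C-int averaged 319 ± 17.2 in LINE-1a and 317 ± 22.3 in dCas vermis, a log2 fold change of 0.01. RMER19B was at 0.20 and IAPEz-int, the internal part of IAP elements, at -0.28. Without LINE-1a 1, RLTR4_Mm and IAPEz-int passed as lower, when 15.8% of all tested repeats passed.

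The partners of KRAB zinc finger proteins were read from a list of 20 genes: Trim28, the enzymes and heterochromatin proteins it recruits, and factors that act with it. All 20 were tested, and 0 passed in limma, edgeR or DESeq2. The median log2 fold change was 0.06, with 13 above and 7 below 0, and 3 had an unadjusted p under 0.05, which is 15% of the list, against 15.3% of all features. Trim28 had 972, 902.5 and 839 normalized counts in LINE-1a 1, 2 and 3, against 909, 974 and 902 in dCas 1, 2 and 3, a log2 fold change of -0.04 with a 95% interval of -0.34 to 0.26. Setdb1, the histone H3 lysine 9 methyltransferase that Trim28 recruits, was at 0.03. Cbx3, a heterochromatin protein, had 242, 322 and 302 normalized counts in LINE-1a 1, 2 and 3, against 209, 197 and 157 in dCas 1, 2 and 3, without overlap (log2 fold change 0.62 ± 0.20 (SE), limma adjusted p = 0.325). Fam208a, a subunit of the HUSH silencing complex, was at 0.41 with the same adjusted p in limma. Dnmt1, the maintenance DNA methyltransferase, had 2374, 755 and 1950 normalized counts in LINE-1a 1, 2 and 3, against 2624, 2650 and 2880 in dCas 1, 2 and 3, with a log2 fold change of -0.84 (limma adjusted p = 0.325). All LINE-1a libraries lay below all dCas libraries for Dnmt1, and LINE-1a 2 lay far below the rest.

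Among members with other described roles, none passed in limma, and differences were at most 0.74 on the log2 scale. Zfp746, also called Paris, is a substrate of the ubiquitin ligase parkin. It had 350, 773 and 645 normalized counts in LINE-1a 1, 2 and 3, against 374, 395 and 321 in dCas 1, 2 and 3, so LINE-1a 1 lay within the dCas range (log2 fold change 0.63 ± 0.27 (SE), limma adjusted p = 0.325). Zfp804a, whose human counterpart ZNF804A is a schizophrenia risk gene, had 412, 694 and 516 normalized counts in LINE-1a 1, 2 and 3, against 482, 367 and 289 in dCas 1, 2 and 3. Its groups overlapped and its mean difference of 0.51 was opposite in sign to that of its paralog Zfp804b. Zfp703, a corepressor whose human counterpart is amplified in breast cancers, was at 0.55, carried by LINE-1a 2, with 162, 291 and 140 normalized counts in LINE-1a 1, 2 and 3, against 111, 142 and 133 in dCas 1, 2 and 3. Zfp704 had 1574, 1822 and 1715 normalized counts in LINE-1a 1, 2 and 3, against 1336, 1523 and 1178 in dCas 1, 2 and 3, without overlap (log2 fold change 0.35 ± 0.15 (SE), limma adjusted p = 0.325).

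The other described members lay close to equal. Zfp706, a small protein that in mouse embryonic stem cells favours differentiation, averaged 1686 ± 96.1 normalized counts in LINE-1a and 1807 ± 513 in dCas vermis, a log2 fold change of -0.07. Zfp711, on the X chromosome, whose human counterpart is mutated in X-linked intellectual disability, had 132, 173 and 103 normalized counts in LINE-1a 1, 2 and 3, against 119, 113 and 120 in dCas 1, 2 and 3. The 2 female libraries were the 2 highest for Zfp711, and the male LINE-1a 3 was the lowest. Groups also overlapped for Zfp827, linked to telomere chromatin through its human counterpart, Zfp830, needed in early mouse embryos, Zfp750, a regulator of epidermal differentiation, and Zfp768. Their log2 fold changes were 0.04 for Zfp827, -0.16 for Zfp830, 0.02 for Zfp750 and 0.11 for Zfp768.

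Over the whole set, the 118 tested members had a median log2 fold change of 0.01, 60 of them above and 58 below 0, beside a median of 0.03 over all 15800 features. The middle 50% ran from -0.23 to 0.13, 105 members lay within 0.5 of 0, and 1 lay beyond 1. The groups did not overlap for 24 members, 20.3%, against 22.1% of all features. Of these, 6 were higher and 18 lower in LINE-1a vermis, against 9.88% and 12.3% of all features.

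**Figure D3:**
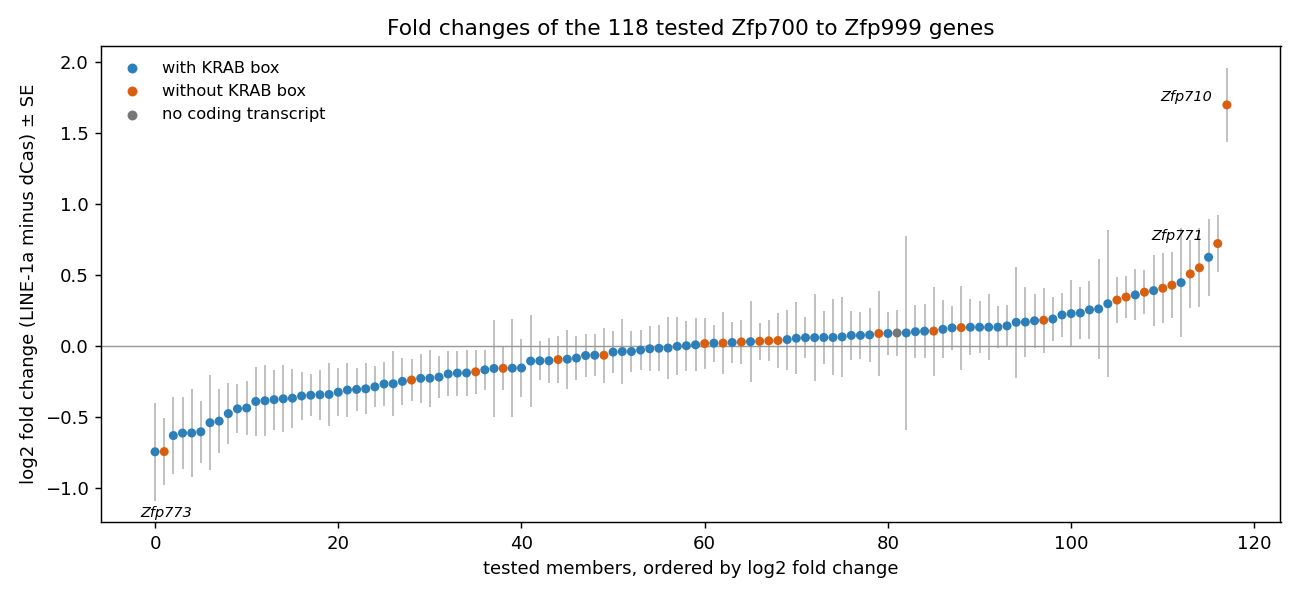
Log2 fold change (LINE-1a minus dCas, vertical axis) with SE for the 118 tested members, ordered from lowest to highest along the horizontal axis and coloured by KRAB box. Zfp710, at 1.70, stands apart from the rest, and Zfp773, at -0.75, is the lowest.

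Proteins were read for a KRAB box and for C2H2 fingers by letter patterns, from the annotated coding transcripts. Genes without a KRAB box are those in which its pattern was not matched. A KRAB box was found in 104 members, with a median of 11 fingers, and none in 27, with a median of 5, and 1 member, Zfp939, had no coding transcript. The 92 tested members with a KRAB box had 40 log2 fold changes above and 52 below 0, with a median of -0.04. The 25 tested members without one had a median of 0.09, with 19 above and 6 below 0. With all libraries scaled to equal totals, the median over all features moved up to 0.15, and these medians were 0.08 with and 0.20 without a KRAB box, so the sign of the KRAB median depended on the scaling and the order of the classes did not. With a KRAB box, 1 member, Zfp729a, was higher without overlap between groups, 1.09% of the tested ones, and 17 were lower, 18.5%. Without one, 5 were higher without overlap, Zfp704, Zfp710, Zfp771, Zfp800 and Zfp821, which is 20% of the tested ones, and 1, Zfp804b, was lower. The shares over all features were 9.88% higher and 12.3% lower. Zfp821 was picked out after its values were seen. The difference between the classes was not tested.

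The classes were also read by library, as median log2 deviations from the dCas mean. Members with a KRAB box had medians of -0.01, -0.05 and -0.17 in LINE-1a 1, 2 and 3, against 0.06, -0.05 and -0.01 in dCas 1, 2 and 3. Members without one had medians of 0.08, 0.32 and 0.13 in LINE-1a 1, 2 and 3, against 0.02, 0.04 and -0.07 in dCas 1, 2 and 3. With a KRAB box, LINE-1a 3 alone lay below the dCas range, and LINE-1a 1 and LINE-1a 2 lay within it. Without one, all LINE-1a libraries lay above it, LINE-1a 1 by little, and the gap between the classes in LINE-1a 1 was about that in dCas 2. Leaving out 1 library at a time gave medians of -0.09 to -0.01 with and 0.03 to 0.16 without a KRAB box, with the lowest value without a KRAB box when LINE-1a 2 was left out.

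LINE-1a 2 was the lowest library for more members than any other library. The lowest library was LINE-1a 1, 2 or 3 for 11, 41 and 17 tested members. It was dCas 1, 2 or 3 for 11, 15 and 23. The highest library was LINE-1a 1, 2 or 3 for 18, 28 and 10 tested members. It was dCas 1, 2 or 3 for 27, 13 and 22. In LINE-1a 1, 2 and 3, 8, 35 and 24 members lay more than 0.3 log2 below the dCas mean, against 7, 4 and 5 members in dCas 1, 2 and 3. In LINE-1a 1, 2 and 3, 13, 30 and 15 members lay more than 0.3 above it, against 10, 2 and 13 in dCas 1, 2 and 3. The dCas libraries are part of that mean, which lowers their counts. None of these counts was set beside its share over all features, so they cannot be called particular to the members. The 5 oligodendrocyte markers also summed lowest in LINE-1a 2, at 255882, 113627 and 167463 normalized counts in LINE-1a 1, 2 and 3, against 321554, 245010 and 236243 in dCas 1, 2 and 3. For the 5 astrocyte and Bergmann glia markers the sums were 83097, 38478 and 63241 in LINE-1a 1, 2 and 3, against 89133, 77765 and 92336 in dCas 1, 2 and 3. All 10 of these markers had log2 fold changes below 0 and 0 passed in limma. Granule cell (71377), microglia (3588), endothelium (3383), red cell (4135) and forebrain (158) marker sums were lowest in LINE-1a 2 too, but their markers did not all follow. The granule cell sum was 71518 in LINE-1a 3. In LINE-1a 2, Cbln3 (16064) was at its lowest, Gabra6 (17492.5) and Zic1 (3852) were at their highest, and Etv1 and Neurod1 lay between. Among the microglia markers Cx3cr1 (1677) alone was at its lowest in LINE-1a 2. Purkinje cell markers summed to 81449, 70590 and 65281 in LINE-1a 1, 2 and 3, against 88600, 102421 and 112110 in dCas 1, 2 and 3. Choroid plexus and meninges sums were lowest in dCas libraries. The part of any cell type in the members' values was not tested.

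**Figure D4:**
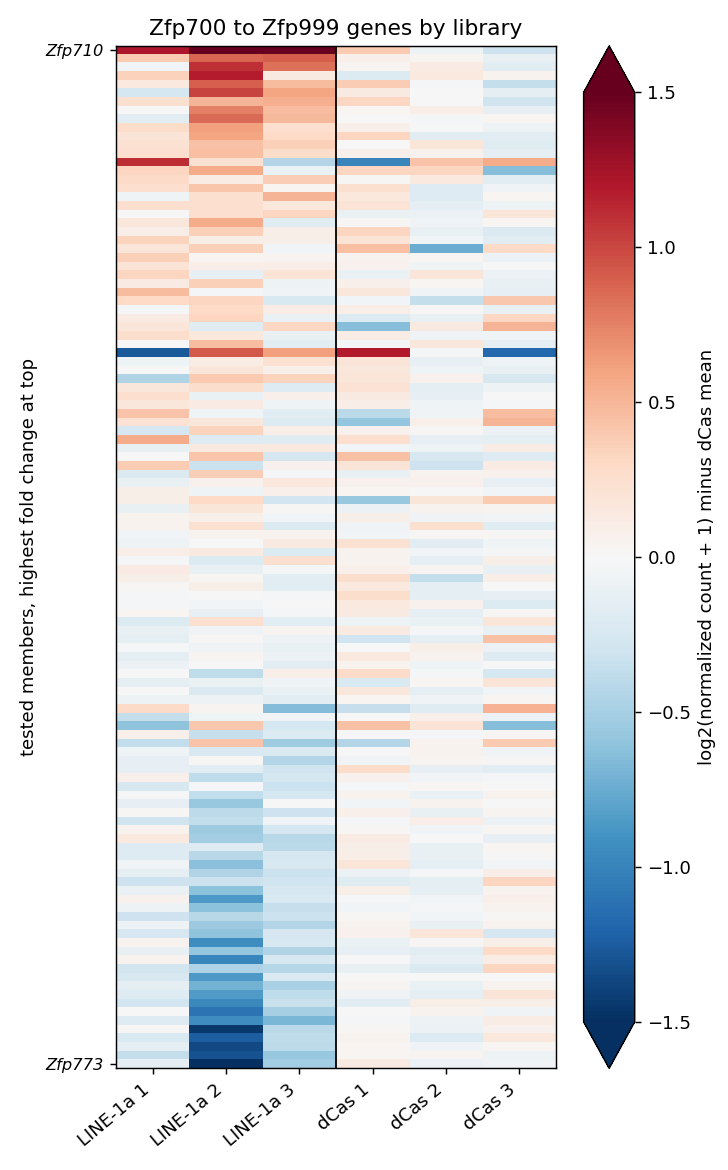
Log2(normalized count + 1) minus the dCas mean for the 118 tested members (rows, highest fold change at the top) in the 3 LINE-1a libraries (left) and the 3 dCas libraries (right), on a colour scale that ends at 1.5 in either direction. At the lower end of the list the strongest colours are in LINE-1a 2.

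The lowest members were KRAB genes, apart from Zfp804b, and in all of the 10 lowest by fold change LINE-1a 2 was the lowest library. Zfp773 had 116, 41.9 and 89.1 normalized counts in LINE-1a 1, 2 and 3, against 140, 121 and 123 in dCas 1, 2 and 3 (log2 fold change -0.75 ± 0.34 (SE)). Zfp790 had 794, 346 and 673 normalized counts in LINE-1a 1, 2 and 3, against 899, 852 and 899 in dCas 1, 2 and 3 (log2 fold change -0.63 ± 0.27 (SE)). In both, LINE-1a 1 came closest to the dCas libraries, and without LINE-1a 2 the log2 fold changes were -0.33 for Zfp773 and -0.27 for Zfp790. Zfp715 (-0.61), Zfp869 (-0.61), Zfp981 (-0.54), Zfp747 (-0.53), Zfp791 (-0.48) and Zfp763 (-0.44) followed, and their limma adjusted p values ran from 0.325 to 0.406. Without LINE-1a 2 these log2 fold changes were -0.31 for Zfp715, -0.20 for Zfp869, -0.26 for Zfp981, -0.31 for Zfp747, -0.29 for Zfp791 and -0.31 for Zfp763. Zfp867 showed another pattern, named after its values were seen. It had 297, 277 and 295 normalized counts in LINE-1a 1, 2 and 3, against 373, 359 and 373 in dCas 1, 2 and 3, with groups that were tight and apart (log2 fold change -0.35 ± 0.15 (SE), limma adjusted p = 0.325).

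The upper end below Zfp710 and Zfp771 mixed both classes. Besides Zfp746, Zfp703 and Zfp804a it held Zfp872 (0.45), Zfp775 (0.43), Zfp787 (0.41), Zfp777 (0.39) and Zfp800 (0.38) by log2 fold change. Of these 5, Zfp800 alone had groups that did not overlap, at 643, 811 and 630 normalized counts in LINE-1a 1, 2 and 3, against 558, 531 and 502 in dCas 1, 2 and 3 (limma adjusted p = 0.325). Zfp872 was low, at 21.8 ± 9.30 in LINE-1a and 14.7 ± 1.42 in dCas vermis, so its ratio rests on few reads. Without LINE-1a 2 the log2 fold changes were 0.17 for Zfp872, 0.23 for Zfp787 and 0.16 for Zfp777, and likewise 0.39 for Zfp746, 0.24 for Zfp703 and 0.31 for Zfp804a.

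By position, the members lay on 17 chromosomes, with 26 on chromosome 7 and 23 on chromosome 17. Neighbours with starts at most 1 Mb apart formed 10 groups of at least 4 members, which together held 80 of the 132. Of these 80, 74 carried a KRAB box, while 21 of the 27 members without one lay outside the groups. In the group on chromosome 8 from Zfp930 to Zfp866, 5 of 6 members were below 0 and the median was -0.30. Its median deviations were 0.03, -0.50 and -0.28 in LINE-1a 1, 2 and 3, so LINE-1a 1 did not share the shift. On chromosome 17, 7 of 8 members from Zfp871 to Zfp955b lay below 0, with a median of -0.18, while the 13 members from Zfp948 to Zfp945 had a median of 0.06.

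The group on chromosome 6 from Zfp786 to Zfp775 had the highest median, 0.39, with Zfp746, Zfp777 and Zfp775 above 0 and the others below. Its median deviations were -0.16, 0.50 and 0.48 in LINE-1a 1, 2 and 3, against 0.01, 0.07 and -0.09 in dCas 1, 2 and 3. LINE-1a 1 thus lay below all dCas libraries and again did not share the shift. Medians of the groups on chromosomes 13 (-0.03), 4 (0.05) and 2 (0.00) were near 0. The 3 groups on chromosome 7 had medians of -0.30, -0.11 and 0.08, and the last of them held both Zfp771 (0.72) and Zfp747 (-0.53), in a group that spans 0.163 Mb. Of 24 tested members on chromosome 7, 7 had an unadjusted p under 0.05 in limma, 2 higher and 5 lower. That is 29.2%, against 15.3% of all features, and Zfp710, Zfp771, Zfp850, Zfp790 and Zfp715 are among them. In Zfp850, Zfp790 and Zfp715 the lowest library was LINE-1a 2. On chromosome 17 it was 1 of 23 tested members, 4.35%. Shares over all features of either chromosome are not given here. Neighbours can share reads, so values within a group are uncertain and not independent.

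**Figure D5:**
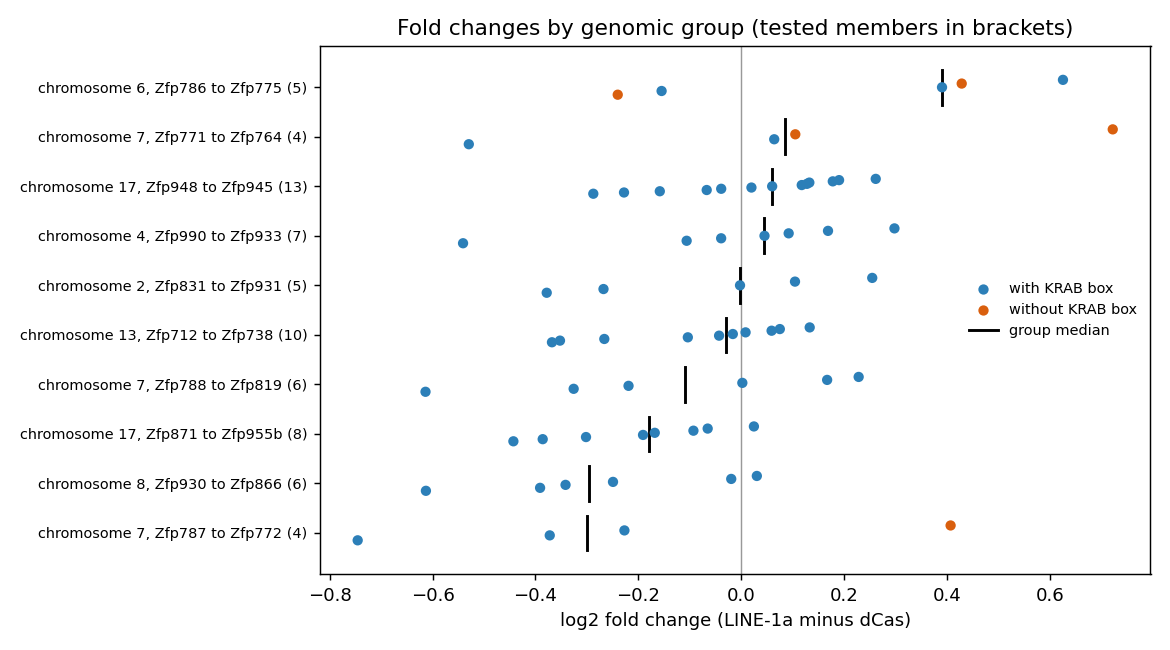
Log2 fold change (LINE-1a minus dCas, horizontal axis) of the tested members in each of the 10 genomic groups (rows, number tested in brackets), coloured by KRAB box, with the group median as a black bar. Medians run from -0.30 on chromosomes 7 and 8 to 0.39 on chromosome 6, and members of 1 group lie on both sides of 0 in every row.

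Levels varied widely among the members, per length and in total. Of the tested members, 9 averaged over 1000 normalized counts and 11 under 50. Per kilobase of exon, the highest was Zfp839, at 759 normalized counts per kb, followed by Zfp938 (661), Zfp869 (467), Zfp830 (454) and Zfp868 (411). Zfp839 had 2775, 3042 and 2214 normalized counts in LINE-1a 1, 2 and 3, against 2896, 3089 and 3049 in dCas 1, 2 and 3, with overlap and a log2 fold change of -0.18. All members together made up 0.253% to 0.272% of the normalized counts of the gene table in LINE-1a libraries and 0.243% to 0.263% in dCas libraries.

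The 14 members under the filter had means between 0.761 and 7.52 normalized counts, and 11.3 was their highest value in any library. Of these, 6 lay on chromosome 2, 4 on chromosome 4 and 2 on chromosome 7, and 12 carried a KRAB box. Zfp965 and Zfp968, both on chromosome 2, had identical values in every library and are 1 measurement.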

How the data were processed

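RNA from the vermis of 6 mice, grouped by the strain in the labels, was analysed. The authors deposited normalized counts, a signal equal to reads divided by a size factor. Per the submitters' processing notes, the tools were Bowtie2 2.2.9, STAR 2.5.3a, DESeq2, SAMtools 1.9 and bedtools 2.27.1, and the builds mm10 and GRCm38. Counter, annotation and strand use: not given in the sources used here. Of the values, 100% were whole multiples of a library's step within 0.001 reads, which gave back the reads.

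The main test was limma-trend 3.58.1 (R 4.3.3), two-sided, on features averaging at least 10, as log2(normalized count + 1), with Benjamini-Hochberg adjustment over 15800 features, and a threshold of 0.05. The values carry counting error as well as animal spread. edgeR 4.0.16 and DESeq2 1.42.0 on recovered reads, other filters, pseudocounts, scalings, covariates and left-out libraries were alternatives, and the methods were tested on simulated data. A design of 3 against 3 libraries allows an exact permutation p of no lower than 0.1. Within strains, libraries differed far beyond sampling noise. The numbers in the labels did not pair the libraries.

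All 132 members matched GENCODE vM21 (GRCm38) by symbol. Fingers and KRAB boxes were sought in the longest reading frame of its coding transcripts, in place of the RefSeq proteins planned: a finger is 2 cysteines 2 to 4 residues apart, then 12 residues, then 2 histidines 3 to 5 apart. A KRAB box was sought in the first 350 residues by its letters, so a box with other letters would be missed. The repeat families were the rows of RLTR4, RLTR6, MuLV, MURVY, MMERVK10C, RLTR10C, RMER19B, RMER19C and IAPEz, and 28 rows of RLTR40 to RLTR49 that the planned name starts also matched were left out of the description. Named members are Zfp710, Zfp771, those with a described role, the 10 highest, the 10 lowest and the 10 of smallest p, the 5 most abundant and those of genomic groups. The members and lists were chosen with earlier results of these data known.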

Additional observations from a re-analysis of the deposited data

How the results depend on the processing

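In the main test 0 members and 23 of all features passed. One member, Zfp710, passed in DESeq2, in edgeR with no filter, with no filter in limma, with equal totals and with the choroid plexus covariate (added after the libraries' values were seen), which makes a count of 1 in each, and between 0 and 1 member passed when 1 library was left out. All features gave 139 calls in DESeq2, 35 in edgeR with no filter, 36 with equal totals, 3 with the sex covariate, 0 in the male libraries alone, and 11 to 40 with 1 library left out. The members' median of 0.01 was 0.12 with equal totals, -0.10 with the sex covariate and in the male libraries alone, and -0.052 to 0.021 with 1 library left out. Of the target repeat families, 0 to 2 passed with 1 library left out, and 0 under every other alternative run. The replicate block, whose numbers did not pair the libraries (correlations of -0.21, 0.14 and -0.09 for same-numbered libraries), gave 24 calls among all features and 0 members, with Zfp710 at an adjusted p of 0.0958 in limma. Across its 20 alternatives Zfp710 kept its direction, at 1.45 to 2.13 on the log2 scale, and passed in 7. Of 33 named members, 27 kept their sign throughout. The others, which ran from -0.07 (Zfp706) to 0.18 (Zfp711) in the main test, reversed: Zfp708 (-0.0061 in DESeq2, -0.20 with the sex covariate and in males alone), Zfp750 (-0.0027 in DESeq2, -0.21 with the sex covariate and in males alone), Zfp711 (-0.18 with the sex covariate and in males alone), Zfp706 (0.054 with equal totals and 0.024 with the choroid plexus covariate) and Zfp827 (-0.022 with the choroid plexus covariate). With 1 library left out, the ranges were -0.052 to 0.11 for Zfp708, -0.081 to 0.14 for Zfp750, -0.0034 to 0.36 for Zfp711, -0.21 to 0.16 for Zfp706, -0.027 to 0.11 for Zfp827 and -0.22 to 0.36 for Zfp768. The cause was not tested. At this depth the 14 members under the filter were not tested.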

Other observations

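The Zfp genes numbered below 700 were read by the same 2 classes. Of these, 244 of 253 were tested, and 0 passed in limma, where 21 had an unadjusted p under 0.05, 8.61% against 15.3% of all features. Of the 117 with a KRAB box, 34 log2 fold changes were above and 83 below 0, with a median of -0.10, and the 127 without one had a median of 0.08, with 70 above and 57 below 0. Without overlap between the groups, 2 with a KRAB box were higher (1.71%) and 17 lower (14.5%) in LINE-1a vermis, and 12 without one were higher (9.45%) and 13 lower (10.2%), where the shares over all features were 9.88% and 12.3%. By library, the medians with a KRAB box were -0.04, -0.20 and -0.08 in LINE-1a 1, 2 and 3, against 0.04, -0.03 and 0.00 in dCas 1, 2 and 3. The medians without one were -0.01, 0.12 and 0.05 in LINE-1a 1, 2 and 3, against 0.01, 0.00 and -0.01 in dCas 1, 2 and 3, so the classes were close in LINE-1a 1. These genes come from the same 6 libraries as the members, and the difference between the classes was not tested.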
